A study of Mus musculus with 2 samples.

Results

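The genes described here encode cell surface receptors for prolactin, growth hormone, cytokines of the interleukin 6 (IL-6) family, leptin, interferon gamma and interleukin 1, together with a pair of intracellular inhibitors that several of these receptors induce. They are 10 genes, taken by symbol from the 23652 genes of the deposited table: the 8 receptor genes Prlr, Ghr, Il6ra, Il6st, Lifr, Lepr, Ifngr1 and Il1r1, and the 2 inhibitor genes Cish and Socs2. Of these, 9 had a mean of at least 1 FPKM (reads scaled to gene length and library total) over the libraries, as did 10666 genes in all, which are called measured below. Lepr was below that level and is described by its reads.

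RNA was sequenced from pancreatic islets of mice aged 7 months. The control library came from SRSF2 flox/flox mice, in which both Srsf2 copies carry recombination sites. The knockout library came from SRSF2 flox/flox Ins2-Cre mice, which carry the same floxed alleles and, in addition, Cre recombinase under an insulin promoter, so that by design deletion is directed to beta cells and other islet cells keep the gene. Each group had 1 library, so no value below has a replicate check, each describes these libraries and not the genotypes, and Cre itself cannot be told apart from loss of Srsf2, since neither library had Cre without floxed alleles. The number of mice pooled and the Ins2-Cre strain used are not stated in the labels.

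Prolactin and growth hormone bind closely related receptors that have no enzyme activity and signal through the kinase JAK2 and the transcription factor STAT5. In rodents the prolactin receptor of beta cells drives the growth of islets in pregnancy. IL-6 binds IL-6 receptor alpha (Il6ra), and the pair recruits gp130 (Il6st), a signalling chain shared with leukaemia inhibitory factor and related cytokines, which acts through JAK1 and STAT3. The interleukin 1 receptor belongs to another receptor family and signals through MYD88 and NF-kB.

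Reads on genes numbered 17412828 for the control and 15098659 for the knockout. Srsf2 had 2296 and 1209 reads, or 37.2 and 22.6 FPKM. The median log2(FPKM + 0.5) difference, knockout minus control, was -0.36 over all measured genes, and a difference minus this median is called relative. For Srsf2 the difference was -0.71 and the relative difference -0.34, neither of them past 2-fold. Differences followed gene length (Spearman rho -0.55 across the 10666 genes, which share these libraries and are not independent). A 16 gene list of acinar (exocrine) cell markers summed to 12611 FPKM in the control library and 107112 in the knockout. The beta cell marker list, with all 10 genes measured, summed to 380317 and 352131 FPKM, with Ins2 the most read of them, so the defining genes of islets were present in both. As single libraries allow no test, genes are counted when past 2-fold in log2(FPKM + 0.5), and intervals are 95% counting intervals, which leave out all variation between mice.

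The IL-6 receptor, prolactin receptor and gp130 genes were lower by 2-fold or more in the knockout library, and the other 6 measured genes were lower by less, although Ifngr1 stood above 0 under 2 other scalings and Il1r1 and Socs2 when centred on genes of similar length. Of the 9 measured genes 3 were at least 2-fold lower, where 6.32% of all measured genes were, and 0 were at least 2-fold higher, where 1.57% were. After subtracting the all-gene median, 2 were lower by that much, Il6ra and Prlr, against a background of 1.36%, and again 0 were higher, against 3.22%. Over all measured genes the split depended on scaling, with 674 lower and 167 higher as deposited but 164 lower and 352 higher under median ratio scaling. The median difference of the receptor and SOCS genes was -0.68, compared with -0.36 over all measured genes, and the relative median was -0.32. Centred on genes of similar length, the median was -0.080. In bulk islets, fewer cells of a type and less RNA per cell cannot be told apart.

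**Figure D1:**
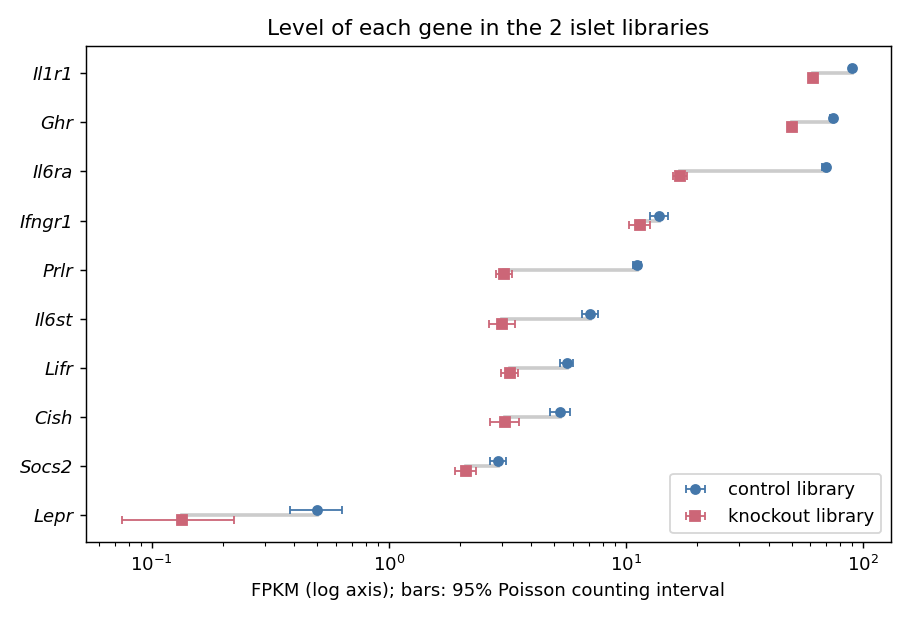
FPKM of the 10 genes on a log axis, with a circle for the control library, a square for the knockout library and bars for 95% Poisson counting intervals. Il6ra and Prlr show the widest gaps among the measured genes, from 69.5 to 17.0 FPKM and from 11.1 to 3.07 FPKM, and no gene stands higher in the knockout library on this scale (Ifngr1, Il1r1 and Socs2 do on others).

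The order of levels by FPKM was nearly the same in both libraries at its upper end. FPKM divides by the listed length, so the order rests on those lengths. For Socs2 the listed length is 11867 bases and the longest coding sequence 594, and for Ifngr1 they are 2112 and 1431. In the control library Il1r1 was highest at 89.8 FPKM, followed by Ghr at 74.6 and Il6ra at 69.5. Ifngr1, Prlr and Il6st came next at 13.8, 11.1 and 7.07 FPKM. Lifr and Cish, at 5.63 and 5.28 FPKM, had overlapping counting intervals, and Socs2 and Lepr stood last at 2.89 and 0.498. In the knockout library Il1r1, Ghr, Il6ra and Ifngr1 kept the first 4 places. Lifr, Cish, Prlr and Il6st, from 3.24 down to 3.01 FPKM, could no longer be ordered, because each interval overlapped that of its neighbour.

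Prlr encodes the prolactin receptor, which also binds placental lactogen. The gene spans 10177238 to 10349190 on the plus strand of chromosome 15 (GRCm38, as for all coordinates here). It had 2761 reads and 11.1 FPKM in the control library and 660 reads and 3.07 FPKM in the knockout library. The FPKM ratio was 0.276 (counting interval 0.253 to 0.300), or 3.63-fold lower, and only 43 of the 10666 measured genes had a lower log2 difference than its -1.70. The deposited length of Prlr is 14231 bases, whereas its longest coding sequence in the GENCODE M21 annotation has 1824, so most of the length behind its FPKM lies outside the coding sequence. GENCODE lists 7 protein-coding transcripts, among which gene counts cannot separate the long signalling form of the receptor from short forms.

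Ghr, the growth hormone receptor gene and the closest relative of Prlr in this set, did not share the size of that difference. Its span on the same chromosome is 3317755 to 3583352, minus strand. It had 5868 and 3435 reads, or 74.6 and 50.4 FPKM (ratio 0.675, counting interval 0.647 to 0.704). Its relative difference was -0.20. The quotient of Prlr to Ghr FPKM, which does not depend on how the libraries are scaled, was 0.149 in the control library and 0.0610 in the knockout, 0.408 times as high (counting interval 0.371 to 0.449).

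Cish and Socs2 encode SH2 domain proteins that STAT5 induces and that in turn dampen signalling from the prolactin and growth hormone receptors. Cish spans 107296659 to 107302784 of chromosome 9 (plus strand). It had 395 and 201 reads, or 5.28 and 3.10 FPKM (ratio 0.587, counting interval 0.493 to 0.697), and its relative difference was -0.32. Socs2 spans 95383903 to 95417321 of chromosome 10 (minus strand) and had 597 and 380 reads, or 2.89 and 2.12 FPKM, with a ratio of 0.734 (0.644 to 0.836). Socs2 was thus lower as deposited, level with all genes at a relative difference of -0.0078, and 0.25 above the median of genes of similar length. The quotient of Prlr to Cish FPKM went from 2.11 to 0.991, that is 0.470 times as high (counting interval 0.387 to 0.571), so these reads show a smaller difference for the target gene Cish than for the receptor gene Prlr.

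The STAT5 recognition motif was looked up near the start sites of the same genes, because Cish is a textbook STAT5 target and is read above beside Prlr. RefSeq windows of 300 bases (250 before and 50 after an annotated start, GRCm38.p6) were at hand for 9 of the 10 genes, 15 windows in all. The palindrome TTCNNNGAA, which reads the same on both strands, was found in 2 of them, and in 8.30% of the 32851 windows of all genes. The Cish window holds it 2 times, as 0.457% of all windows do at least that often, with the first copy beginning at the annotated start. The other match lies 110 bases before 1 of 3 annotated Prlr starts. Both sites are written 5' to 3' on the plus strand, with the motif in capitals, at chr9:107296654-107296683 for Cish and chr15:10223786-10223815 for Prlr.
Cish: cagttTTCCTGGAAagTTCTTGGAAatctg
Prlr: gcaaaatgagTTCTAGGAAtaagggatatc
A match describes these letters and was not tested for binding of any factor.

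Among other genes that lactogens or STAT5 regulate in islets or elsewhere, the cyclin D genes Ccnd1 and Ccnd2 were also past 2-fold lower. Of 11 measured genes in that list of 17, 3 were lower by 2-fold or more on both scales, and 0 were higher. Over all measured genes 6.32% were that much lower as deposited and 1.36% after subtracting the all-gene median. Ccnd2, the cyclin that beta cells of the mouse depend on most for growth after birth, had 14683 and 4231 reads, or 132 and 43.7 FPKM (ratio 0.332, counting interval 0.321 to 0.344). The glucose transporter gene Slc2a2, a beta cell marker as well, had 277 and 98.8 FPKM, and Ccnd1 had 33.0 and 11.6 FPKM. At the other end, Bcl6, a repressor, had 1.14 and 1.60 FPKM, and the cell cycle inhibitor gene Cdkn2c 5.99 and 5.91 FPKM. The median relative difference of the list was -0.46. Tph1, an enzyme of serotonin synthesis that lactogens switch on in mouse beta cells, had 0 reads in the control library, which allows up to 3 reads or 0.0360 FPKM, and 2 reads in the knockout library. Some insulin promoter Cre strains carry a growth hormone minigene, which can act on the prolactin receptor, and whether the present strain does is not stated in the labels. Men1, a gene that most cells use, was listed at 0 in both libraries. The bound of 3 reads for a count of 0 covers counting error only, here and below.

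Il6ra encodes the receptor chain that binds IL-6. It had the largest difference of the 10 genes. The gene spans 89869324 to 89913196 on the minus strand of chromosome 3. It had 4086 reads and 69.5 FPKM in the control library and 866 reads and 17.0 FPKM in the knockout library (ratio 0.244, counting interval 0.227 to 0.263), or 4.09-fold lower. In all, 18 measured genes had a lower log2 difference. Of the measured genes, 94.0% had a lower FPKM than Il6ra in the control library and 77.1% in the knockout library.

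Il6st encodes gp130, the chain that carries the signal of IL-6 and its relatives into the cell. Its span is 112464070 to 112506860 of chromosome 13, plus strand. It had 671 and 248 reads, or 7.07 and 3.01 FPKM (ratio 0.426, counting interval 0.367 to 0.494). Its difference of -1.11 was past 2-fold as deposited, but relative to all genes it was -0.74 and not past it. Il6ra and Il6st were thus both lower, and unequally so: the quotient of Il6ra to Il6st FPKM was 9.83 in the control library and 5.64 in the knockout, 0.573 times as high (counting interval 0.486 to 0.678).

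Lifr, the leukaemia inhibitory factor receptor that pairs with gp130, differed less than its partner. It spans 7090610 to 7197489 of chromosome 15 (plus strand) and had 1050 and 523 reads, or 5.63 and 3.24 FPKM (ratio 0.574, counting interval 0.516 to 0.639). Its relative difference was -0.35, and it lay 0.057 from the median of genes of similar length. The quotient of Il6st to Lifr FPKM was 0.931 in the knockout library, 0.742 times that of the control (counting interval 0.617 to 0.891). Of the other receptors that use gp130, 2 of 6 were measured. Of these 0 were past 2-fold in either direction, against 6.32% of all measured genes lower and 1.57% higher as deposited. Cntfr, the ciliary neurotrophic factor receptor, had 6.36 and 4.08 FPKM, and Il11ra1, the interleukin 11 receptor, 13.1 and 11.0 FPKM.

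Lepr encodes the leptin receptor, which also signals through JAK2 and STAT3 and acts chiefly in the hypothalamus. Its span on chromosome 4 runs from 101717137 to 101815352 on the plus strand. It had 64 reads in the control library and 15 in the knockout, or 0.498 and 0.135 FPKM. The ratio was 0.270 with a wide counting interval of 0.143 to 0.480, which overlapped those of Prlr and Il6ra. On the log2(FPKM + 0.5) scale, which compresses such low levels, the difference was -0.65.

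**Figure D2:**
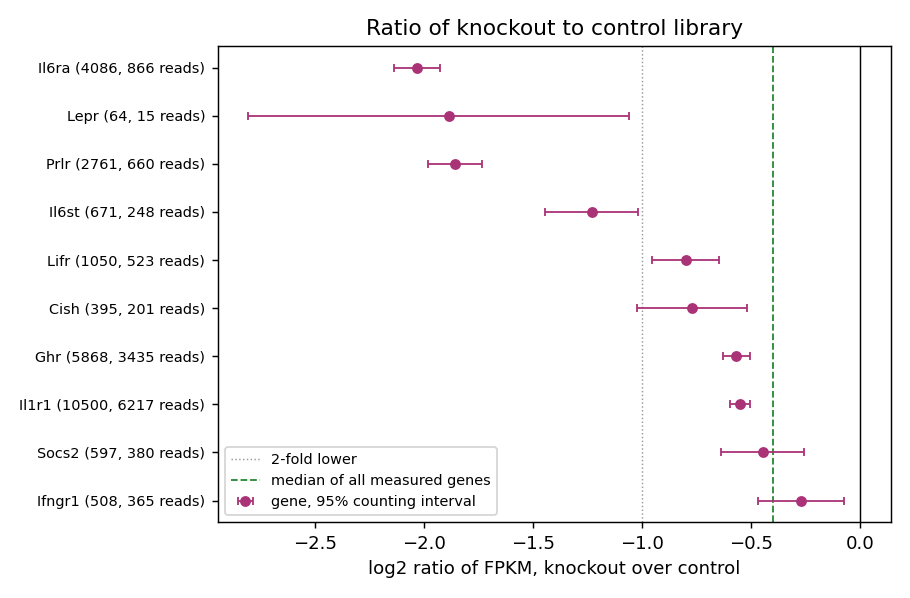
Log2 ratio of FPKM, knockout over control, for the 10 genes, with 95% counting intervals, reads in control and knockout beside each name, a dotted line at 2-fold lower and a dashed line at the median of all measured genes, -0.40 without a pseudocount. Il6ra, Lepr, Prlr and Il6st lie beyond the dotted line with their whole intervals, whereas the intervals of Socs2 and Ifngr1 cross the dashed line.

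Ifngr1, the ligand-binding chain of the interferon gamma receptor, had the smallest difference as deposited, but not relative to all genes or to genes of similar length. It spans 19591949 to 19610229 of chromosome 10 (plus strand) and had 508 and 365 reads, or 13.8 and 11.4 FPKM (ratio 0.829, counting interval 0.722 to 0.950). The sign depended on the scaling: the log2 difference was -0.26 as deposited and 0.10 relative to all genes. Its partner chain Ifngr2 had 6.74 and 5.51 FPKM, and the quotient of Ifngr1 to Ifngr2 was 2.05 and 2.08, with a counting interval of 0.796 to 1.29 for the knockout over the control quotient. Of 5 measured genes among 9 other type II cytokine receptors, 0 were past 2-fold. Over all measured genes 6.32% were that much lower and 1.57% higher as deposited. Ifnar1, a chain of the type I interferon receptor, had 5.58 and 3.34 FPKM, while the other chain, Ifnar2, had 8.42 and 10.8 FPKM, and Il10rb, a chain shared by interleukin 10 and its relatives, had 6.82 and 8.45 FPKM.

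Il1r1, the signalling receptor of interleukin 1, had the highest FPKM of the 10 genes in both libraries. It spans 40222480 to 40316201 of chromosome 1 (plus strand) and had 10500 and 6217 reads, or 89.8 and 61.3 FPKM (ratio 0.683, counting interval 0.662 to 0.705). Its relative difference was -0.18, and it lay 0.043 above the median of genes of similar length. Its coreceptor gene Il1rap was far lower, at 0.564 and 0.516 FPKM on 111 and 88 reads, so that the quotient of Il1r1 to Il1rap FPKM was 159 in the control library and 119 in the knockout (0.747 times as high, with a counting interval from 0.558 to just above parity). Il1r2, a decoy receptor that binds interleukin 1 without signalling, had 3.73 and 2.05 FPKM. This was the lowest difference in a list of 13 interleukin 1 and tumour necrosis factor receptors. Of these 5 were measured and 0 were past 2-fold, against 6.32% of all measured genes lower and 1.57% higher as deposited. Sigirr, which dampens interleukin 1 receptor signalling, had 5.73 and 4.02 FPKM, and the interleukin 17 receptor chain Il17rc 9.69 and 7.28 FPKM. The highest was Tnfrsf1a, a tumour necrosis factor receptor, at 17.9 FPKM in both libraries.

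The differences went with gene length, whose part in them was not tested. The 9 measured genes had a median length of 5452 bases, against 3513 over all measured genes, and longer genes were lower in the knockout library. Genes of a length from 20% below to 25% above that of Prlr had a median difference of -0.58 (352 genes), and those around Il6ra -0.38 (2669 genes). Against those medians Il6ra stood at -1.62 and Prlr at -1.12, both still beyond 2-fold, and Il6st at -0.57. Ghr, Lifr, Ifngr1 and Il1r1 were all within 0.080 of the median for their length, Cish was 0.20 below it and Socs2 was 0.25 above it. The median of the 9 genes was -0.080 on this scale, against -0.68 as deposited.

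**Figure D3:**
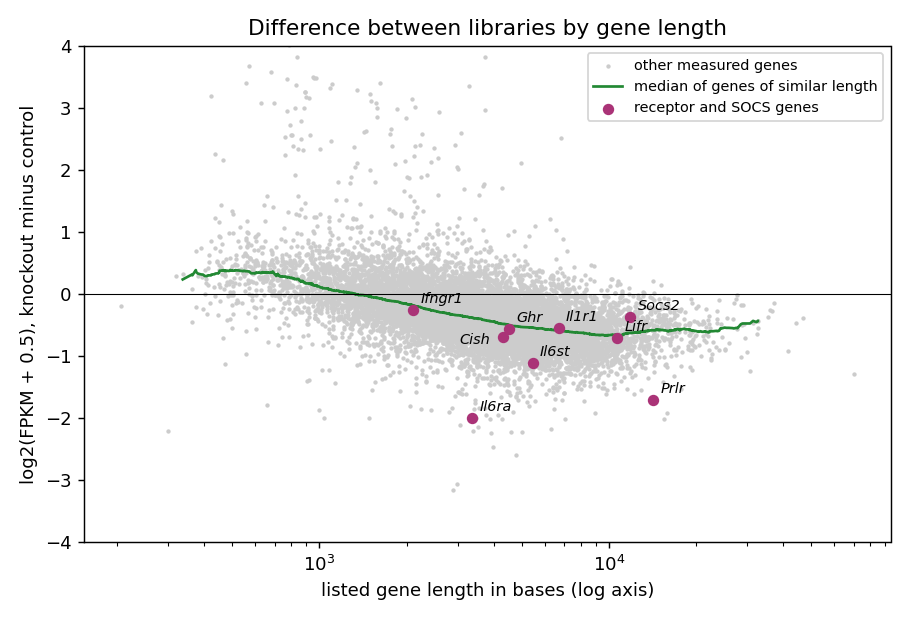
Difference in log2(FPKM + 0.5), knockout minus control, against listed gene length on a log axis, with measured genes in grey, the median of genes of similar length as a line (drawn where the window holds at least 20 genes) and the 9 measured receptor and SOCS genes labelled. Il6ra and Prlr lie more than 1 below the line, at -1.62 and -1.12 from it, Il6st lies 0.57 below it, and the other 6 lie close to it. The plot leaves out 3 genes beyond its vertical axis.

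Downstream of these receptors the transcription factor of the IL-6 pathway, Stat3, was at least 2-fold lower as deposited, while the STAT5 and JAK2 genes differed less. Stat3 had 2825 and 1105 reads, or 35.5 and 16.0 FPKM (ratio 0.451, counting interval 0.420 to 0.484), and its relative difference was -0.76. The quotient of Il6st to Stat3 was 0.199 and 0.188, with a counting interval of 0.801 to 1.11 for the one over the other. Jak3, a kinase of lymphocyte receptors, had 4.26 and 1.96 FPKM. Jak2 had 3.54 and 2.89 FPKM and Stat5a 3.99 and 3.38 FPKM, with relative differences of 0.11 and 0.15, and Stat5b had 10.8 and 6.89 FPKM. At the upper end of the list stood Stat6, a factor of interleukin 4 signalling, with 6.87 and 8.18 FPKM. Of the 10 measured JAK and STAT genes 1 was at least 2-fold lower on the deposited scale, where 6.32% of all measured genes were. After subtracting the all-gene median 0 were, and the relative median was -0.27.

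Of 5 measured genes among 6 other SOCS genes, 2 were at least 2-fold lower on the deposited scale, where 6.32% of all measured genes were. After subtracting the all-gene median 1 was, where 1.36% were. The 2 genes lower as deposited were Socs4, with 174 and 45 reads (ratio 0.298, counting interval 0.210 to 0.416), and Socs7, with 8.42 and 3.87 FPKM. Socs3, the inhibitor that STAT3 induces, had 4.43 and 3.86 FPKM, and Socs6 had 5.67 and 4.33 FPKM. Among 14 measured phosphatases, adaptors and other regulators, 2 were at least 2-fold lower on the deposited scale, against the same 6.32%. After subtracting the all-gene median 0 were, against 1.36%. Ptpn11, which encodes the phosphatase SHP2, had 42.5 and 19.7 FPKM, and Ptpn1, which encodes PTP1B, had 23.9 and 11.5 FPKM. Sh2b3 and Ptpn6 were the highest of that list, with relative differences of 0.13 and 0.037.

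Of 14 measured STAT3 targets 0 were past 2-fold in either direction. As deposited, 6.32% of all measured genes were lower by that much and 1.57% higher. The relative median of the STAT3 targets was 0.16. Vegfa, a vascular growth factor gene, had 117 and 65.7 FPKM and the survival gene Bcl2l1 11.7 and 6.41 FPKM, whereas the growth genes Fos, with 97.8 and 110 FPKM, and Myc, with 3.26 and 3.67 FPKM, were at the upper end. Interferon gamma targets had 5 measured genes, of which 1 was at least 2-fold higher on the deposited scale, against 1.57% of all measured genes. After subtracting the all-gene median 2 were, against 3.22%. These were Irf8, a factor of blood cells (56 and 147 reads), and the GTPase gene Gbp2 (42 and 86 reads). The lowest were Irf1, at 12.0 and 9.39 FPKM, and Cd274, at 4.32 and 3.33 FPKM. Lymphocyte markers were also higher in the knockout library, summing to 32.4 and 83.6 FPKM over 11 genes. Macrophage markers summed to 125 and 151 FPKM over 10 genes, but Csf1r went the other way, with 260 and 151 reads. Relative to all genes, 7 of the 8 measured macrophage markers were higher and 1 was lower. The part of both lists in the Irf8 and Gbp2 values was not tested.

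Interleukin 1 signalling proteins, all 15 of them measured, had a relative median of -0.24. On the deposited scale 1 was at least 2-fold lower, where 6.32% of all measured genes were, and 0 after subtracting the all-gene median. Chuk, a kinase of the NF-kB pathway, had 14.4 and 6.74 FPKM, and the ligase gene Traf6 had 7.13 and 3.61 FPKM. Irak2 and Rela were highest, with relative differences of 0.43 and 0.28. Of 7 measured NF-kB targets 1 was at least 2-fold lower as deposited, against the same 6.32%. This was Nfkbiz with 9.83 and 4.59 FPKM, followed by Tnfaip3 with 132 and 53 reads. Icam1 and Relb were at the upper end, with relative differences of 0.50 and 0.49.

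Of the other type I cytokine receptor genes, those of the structural family of Prlr and Il6ra, 8 of 24 were measured. Of these 0 were at least 2-fold lower, against 6.32% of all measured genes as deposited and 1.36% relative to all genes. At least 2-fold higher were 1 as deposited and 2 relative to all genes, against 1.57% and 3.22% of all measured genes. Il2rg, the common chain of lymphocyte receptors, with 44 and 75 reads, was past 2-fold relative to all genes only. The lowest were Il4ra, at 2.52 and 1.66 FPKM, and Csf2ra, at 3.93 and 2.88 FPKM, with relative differences of -0.12 and -0.025. Most ligands were at or near 0 reads. Prl, Gh, Il6 and Lep had 0 reads in both libraries, which by counting error alone allows up to 3 reads each, and 2 of 15 ligand genes were measured. These were Il1b, the interleukin 1 beta gene of macrophages, with 33 and 89 reads (ratio 3.11, counting interval 2.06 to 4.79), and Ctf1, a gp130 ligand, with 123 and 130 reads. The part of the macrophage markers, most of them higher in the knockout library, in the Il1b value was not tested.

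**Figure D4:**
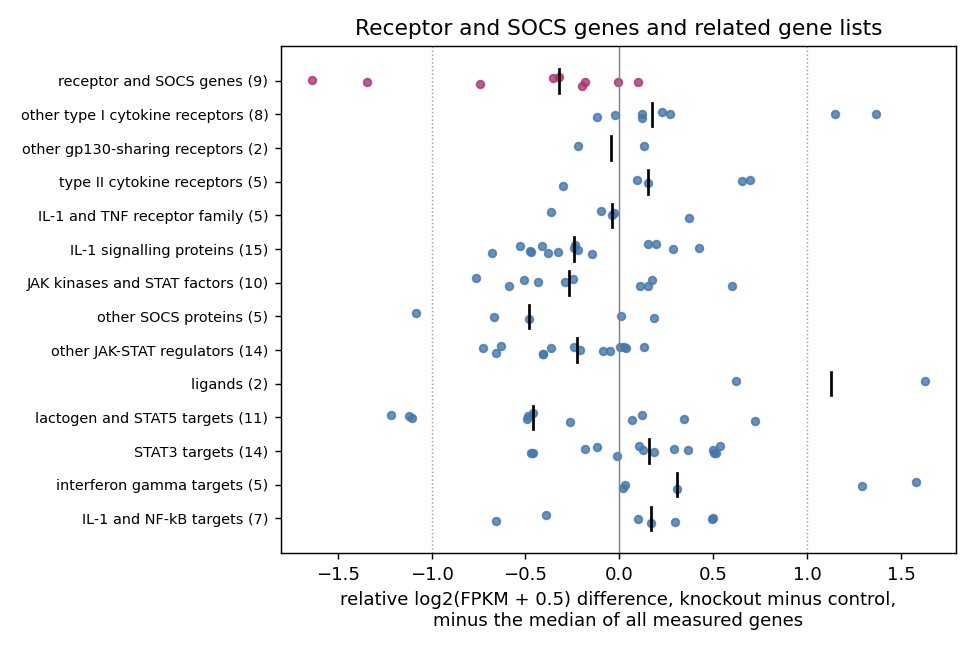
Relative log2(FPKM + 0.5) difference of the measured genes (1 dot each) for the receptor and SOCS genes and for 13 related lists, with the number measured in brackets, a bar at each median and dotted lines at 2-fold. The receptor and SOCS genes run from -1.64 for Il6ra to 0.10 for Ifngr1, with 2 of 9 beyond the lower dotted line, and beyond it in the related lists are Socs4 and, among lactogen and STAT5 targets, Ccnd1, Ccnd2 and Slc2a2.

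Markers of the cell types that could carry these receptors differed in both directions. Beta cell markers had a relative median of -0.26, with Slc2a2 the 1 gene of 10 past 2-fold on that scale, where 1.36% of all measured genes were lower. As deposited, 3 of the 10 were lower by 2-fold or more, against 6.32% of all measured genes. These were Slc2a2 at -1.48, the glucose-6-phosphatase gene G6pc2 at -1.36 (relative -0.99) and the zinc transporter gene Slc30a8 at -1.21. Another 3 were higher relative to all genes, namely Ucn3 at 0.53, Iapp at 0.43 and Ins2 at 0.33. Against genes of similar length, Ucn3 stood at 0.21, Iapp at -0.27 and Ins2 at -0.37. The median of the beta cell list on that scale was -0.53. Relative medians were higher for other endocrine cells, as alpha cell markers had 0.45 over 8 genes and delta and PP cell markers 1.49 over 4. Alpha cell markers summed to 20181 and 27357 FPKM and those of delta and PP cells to 12909 and 28281 FPKM. Endothelial markers summed to 196 and 186 FPKM over 9 genes, stromal markers to 37.8 and 35.8 over 9, and duct markers to 431 and 375 over 8, and none of these genes was at 0 in either library. Plvap gave 97.5 and 97.3 FPKM of the endothelial sum, and Rgs5 24.9 and 25.7 of the stromal sum. Relative to all genes, 4 of the 9 measured endothelial markers were lower and 5 higher. Of 5 measured stromal markers 2 were lower and 3 higher. The duct sum was carried by the keratin gene Krt7, at 307 and 206 FPKM. In contrast, 5 of the 6 measured duct markers were higher relative to all genes, with a relative median of 0.87. Of them 2 were higher by 2-fold or more, where 3.22% of all measured genes were. Of the acinar markers 13 of the 14 measured were higher by 2-fold or more, against 1.57% of all measured genes. Prss1, with 0 and 4 reads, was the gene at 0 in the control library. Computing library totals without the acinar list gave a median of -0.55 for the receptor and SOCS genes and left 2 of them, Il6ra and Prlr, at least 2-fold lower. The part of other cell types in the Il6ra, Prlr and Il6st values was not tested.

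Over the libraries, the genes nearest to Il6ra in both log2 levels were Glp1r, the receptor of the incretin GLP-1 (68.9 and 16.8 FPKM), Sytl4, which encodes granuphilin (64.5 and 20.2 FPKM), and Gad1, an enzyme gene of GABA synthesis (55.5 and 16.4 FPKM). Those nearest to Prlr were Ppp4r3b, a phosphatase subunit gene (11.5 and 2.94 FPKM), the bicarbonate transporter gene Slc4a7 (10.6 and 3.36 FPKM) and the fatty acid synthase gene Fasn (10.3 and 3.28 FPKM). The measure of likeness was the straight-line distance in log2(FPKM + 0.5), and it rests on 1 value per library.

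In the authors' deposited table, which compares these libraries by DESeq, 0 of the 10 genes had an adjusted p-value under 0.05, where 0.496% of its 16528 genes did. The authors' deposited table gives Il6ra a log2 fold change of -1.65 with an adjusted p-value of 0.165 and Prlr -1.48 with 0.456. Their unadjusted p-values in the authors' deposited table are 0.00101 and 0.00364, with 100 and 131 genes below them. For the other 8 genes the log2 fold changes there run from -1.51 for Lepr to 0.11 for Ifngr1. With 1 library per group, the p-values of that comparison cannot measure variation between mice of the same genotype.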

How the data were processed

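Both libraries came from bulk islets. Read counts per gene were deposited as whole numbers, with FPKM beside them, per the file headers. Recomputing FPKM from counts, listed length and library totals gave the deposited FPKM. The authors' deposited table holds normalised counts (signal per library, counts over size factors of 1.23 and 0.816), their fold ratio, its log2 value, and p-values. Bowtie2 2.4.2, DESeq and the builds mm10 and GRCm38 are named per the submitters' processing notes. For counting tool, strand setting and annotation release: not given in the sources used here. By span, 0 other listed genes overlapped the 10 genes.

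With 1 library per group, no count model was fitted. Differences used log2(FPKM + 0.5) over genes averaging 1 FPKM or more, and this scale understates low genes. Ratios carry exact conditional binomial intervals of reads, and levels exact Poisson intervals, at 95%, and quotients of gene pairs exact conditional odds ratio intervals. They cover counting error only. Steps ran in Python 3.11.15 with scipy 1.17.1 and were tested on simulated data. Alternatives changed pseudocount, scaling, filter, size rule, length and composition.

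Genes and lists were chosen with earlier results of these data known. Named list genes are the 2 lowest and 2 highest measured in each list, of which 2 are not reported here. Jak2, Stat5a, Stat5b, Ccnd1, Tph1, Men1, Ifngr2, Il1rap and the ligands at 0 are named besides, some chosen after their values were seen. Bcl2l1, Il4ra, Icam1, Osmr, Slc2a2, Socs1 and Socs3 stand in more than 1 list.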

Additional observations from a re-analysis of the deposited data

How the results depend on the processing

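Under the alternatives, Il6ra and Prlr remained at least 2-fold lower in every setting run, on the deposited scale and against the all-gene median, and no measured gene of the set was at least 2-fold higher in any. Il6st was past 2-fold as deposited with pseudocounts of 0.1 and 1 FPKM, with no minimum and with a minimum of 5 FPKM, but not under any rescaling or centring. With the 1.5-fold rule the genes past it were 5, with Lifr and Cish added, and over all 10666 measured genes 3160 were that much lower. The median difference of -0.68 was -0.33 under median ratio scaling, -0.34 with the authors' normalised counts, -0.49 when totals omitted the 20 top genes and -0.080 when centred on genes of similar length, which by construction takes out the shift common to long genes. Over all measured genes, the 674 lower and 167 higher became 1001 and 204 with a pseudocount of 0.1, 457 and 140 with 1, 164 and 352 under median ratio scaling, 315 and 266 without the top genes, 160 and 327 with the authors' values, 408 and 92 above 5 FPKM, 376 and 219 without acinar genes in the totals, and 111 and 216 when centred on length. Of 70 values of single genes under alternatives, 66 stayed below 0 and 4 were above it: Ifngr1 reached 0.13 at most, Il1r1 0.043 and Socs2 0.25. Il6ra ranged from -2.03 to -1.61 and Prlr from -1.83 to -1.12. With 1 library per group no replicate could be left out. No paired analysis was possible because each group has 1 library. Depth limits Lepr most, with 64 and 15 reads.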

Other observations

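Among the related lists, a few genes below the minimum level had more reads in the knockout library, and they are named after their values were seen. Igf1, the insulin-like growth factor gene that growth hormone induces in liver, had 12 and 110 reads, or 0.0790 and 0.836 FPKM (ratio 10.6, counting interval 5.81 to 21.1). Cxcl10, a chemokine gene that interferon gamma induces, had 0 and 27 reads, and a count of 0 allows up to 3 reads. Cxcl9, a related chemokine gene, had 3 and 32 reads, a ratio of 12.3 (counting interval 3.85 to 62.8). Il22ra1, the interleukin 22 receptor chain, which acinar cells use, had 24 and 87 reads, a ratio of 4.18 (2.64 to 6.87). In the same library the acinar, lymphocyte and macrophage marker lists had higher FPKM sums, and their part in these values was not tested. The near-identical receptor genes Csf2rb and Csf2rb2 had the same reads, 26 in the control library and 15 in the knockout.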
